A study of Mus musculus with 11 samples.

Results

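The 8 enzymes described here handle ammonia in the liver. They are Cps1, Otc, Ass1, Asl and Arg1 of the urea cycle, Nags, which makes the activator of Cps1, and Glul and Gls2, which make and split glutamine. They were chosen by name, as every probe that the array files or the RefSeq gene table assigned to one of these genes. This gave 14 probes for 8 genes, of 41174 probes and 15950 genes tested. All 14 probes were well above background on all 11 arrays and none was saturated.

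Liver total RNA from newborn mice of a hybrid 129 x C57BL/6 background was hybridised to Agilent 1-colour whole mouse genome arrays. Mutants were double transgenic for AFP-Cre, a recombinase driven by the alpha-fetoprotein promoter, and for Rosa26-lsl-NICD, an allele that makes the active intracellular domain of Notch once Cre has removed a stop cassette. Controls carried Rosa26-lsl-NICD alone. There were 2 controls and 3 mutants on the day of birth (day 0), and 3 controls and 3 mutants on day 2. No group carried AFP-Cre alone, so effects of Cre and of NICD cannot be told apart, and alpha-fetoprotein is made by hepatoblasts and newborn hepatocytes, so the cells meant to make NICD are those that make the urea cycle enzymes. The labels do not say whether the pups came from separate litters, and p-values measure the spread between these samples.

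Ammonia reaches the liver from the gut and from the breakdown of amino acids. The urea cycle joins it, through carbamoyl phosphate and citrulline, to the nitrogen of aspartate and releases urea. The first steps, by Cps1 and Otc, take place in mitochondria, and those by Ass1, Asl and Arg1 in the cytosol. In the adult lobule the urea cycle and Gls2, the liver glutaminase, lie mainly in hepatocytes near the portal vein, while Glul, glutamine synthetase, lies in the hepatocytes around the central vein and takes up ammonia that escaped the cycle. The comparisons address how these genes differed between mutants and controls, and between birth and day 2.

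The level of a probe is given as log2 of its processed signal after scaling each array to its own 75th percentile. Levels are compared between arrays for 1 probe, not between probes. Probes that lie in coding sequence are shown here because agreement or disagreement between probes of a gene bears on the values below. Capitals mark the 20 bases that the Ass1 probe shares with the second probe of that gene.
Otc A_51_P126563: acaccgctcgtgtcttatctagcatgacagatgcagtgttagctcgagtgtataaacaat
Ass1 A_52_P361165: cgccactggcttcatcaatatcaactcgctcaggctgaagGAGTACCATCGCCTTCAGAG
Asl A_51_P174645: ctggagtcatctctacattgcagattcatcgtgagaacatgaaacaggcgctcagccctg
Arg1 A_51_P303160: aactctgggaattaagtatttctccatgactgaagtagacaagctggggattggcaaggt
Nags A_52_P487436: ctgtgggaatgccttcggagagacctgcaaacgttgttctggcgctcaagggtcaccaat
Glul A_52_P143866: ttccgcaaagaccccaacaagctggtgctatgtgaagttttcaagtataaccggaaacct
On mouse build mm8, as the files give it, the Otc probe spans chrX:9433676-9457323 and the Ass1 probe chr2:31340768-31342407, so that both join exons. The Asl probe spans chr5:130296797-130297382, also more than its own length of 60 bases. The Arg1 probe lies at chr10:24605804-24605863, the Nags probe at chr11:101964291-101964350 and the Glul probe at chr1:155666853-155666912.

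The 75th percentiles of the arrays lay between 608, on mutant day 0 replicate 3, and 1302 units of signal, with all 3 day 2 mutants (1053 to 1302) above all 3 day 2 controls (794 to 974.9), and from 63.3% to 68.6% of probes were well above background. The number of arrays limits the precision. Statements below that groups did not overlap, or lay below one another, describe the printed values. The share of all genes with such groups is not set beside them. Mutant day 0 replicate 3 stood apart. It read at least 2-fold below every other array for 470 genes and at least 2-fold above for 605, against at most 66 for any other array, and its correlation across genes with its group was 0.952 and 0.954, where it was at least 0.983 for all other arrays of 1 group. Xist and Y-linked genes marked both day 0 controls as male and all 3 day 0 mutants as female, so sex and genotype cannot be told apart at day 0. On day 2, control replicate 3 and mutant replicate 1 were male and the other 4 pups female. Sex did not vary within a day 0 group, so the covariate for pup sex used below rests on the day 2 arrays.

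Over both days, 3 of the 8 genes fell in mutants and none rose. These were Gls2, Cps1 and Glul. Of all genes tested, 15.7% passed the threshold of an adjusted p of 0.05 in this comparison, 6.92% by a fall and 8.77% by a rise. The other 5 members had negative differences, from -0.27 for Nags to -1.09 for Otc, that did not pass. The median difference of the members was -0.68 on the log2 scale, against -0.05 over all genes. The 3 calls also stood without mutant day 0 replicate 3, but 1 gene passed without day 0 control replicate 2 or with pup sex as a covariate, 2 with the slide as a block and 5 without mutant day 2 replicate 3. Counts in these alternative settings are given without the share of all genes called in the same setting. In bulk liver RNA, fewer hepatocytes and less RNA per hepatocyte cannot be told apart.

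**Figure D1:**
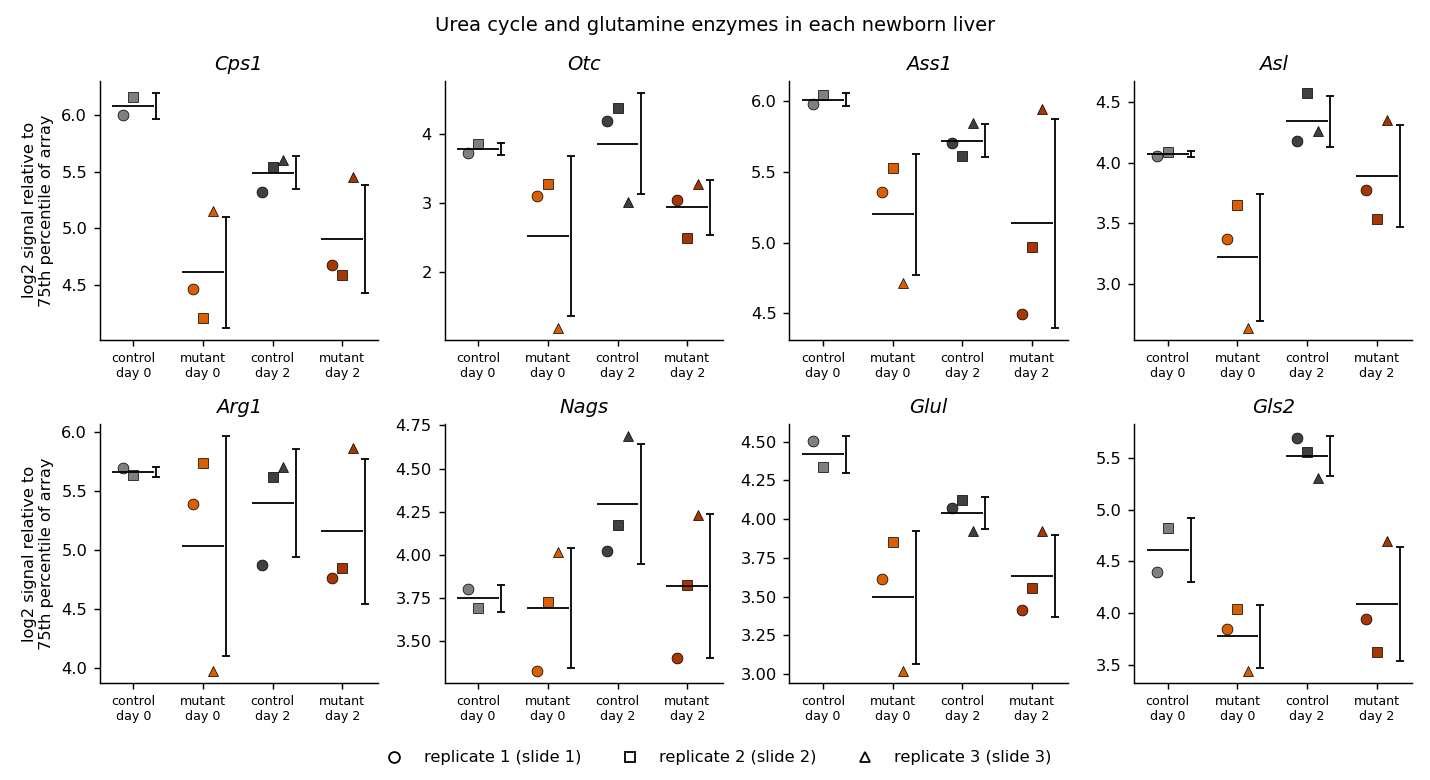
Log2 signal of each of the 8 genes, scaled to the 75th percentile within an array (vertical axis, its range set for each gene) in the 4 groups of genotype by day; each point is 1 array, its shape the replicate and slide, with a line at the group mean and a bar of 1 SD (n = 2 for day 0 controls, n = 3 elsewhere). Gls2 mutants lie below all controls of their day, with day 2 values from 3.62 to 4.69 against 5.31 to 5.69, while the Arg1 groups overlap on both days.

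Cps1, carbamoyl phosphate synthetase, makes the first intermediate of the cycle from ammonia and bicarbonate. It read 6.00 and 6.16 in day 0 controls and 4.46, 4.20 and 5.15 in day 0 mutants. At day 2 its level was 5.32, 5.54 and 5.60 in controls and 4.67, 4.59 and 5.45 in mutants. Every day 0 mutant lay below both day 0 controls, and on day 2 mutant replicate 3 lay within the range of the controls. Averaged over the days the difference was -1.03 ± 0.21 (SE; adjusted p = 0.0114), a 2.04-fold lower level. At day 0 it was -1.47 ± 0.32 (adjusted p = 0.0489), or 2.78-fold lower, and at day 2 it was -0.58 ± 0.28 (adjusted p = 0.201). The change of the difference between the days was 0.89 ± 0.43 (adjusted p = 0.376).

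The day 0 call of Cps1 lay close to the threshold and held in 10 of 24 alternative settings. It was lost when any 1 array other than mutant day 0 replicate 3 or mutant day 2 replicate 3 was left out, with adjusted p-values from 0.0615 to 0.323. A covariate for pup sex gave an adjusted p of 0.371 at day 0 and 0.0561 over both days, and leaving out day 0 control replicate 2 gave 0.323 and 0.0554. With the sex covariate, which rests on the day 2 arrays, the day 0 difference was -1.56 ± 0.46. Cps1 was read by a single probe at chr1:67164100-67164159, which the files assign to it through a cDNA clone. Its bases hold a stop codon in all 3 forward frames, so these 60 bases are not one stretch of coding sequence.

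Otc, ornithine transcarbamylase, joins carbamoyl phosphate to ornithine and is encoded on the X chromosome. Its main probe, at chrX:9477100-9477159, read 3.73 and 3.85 in day 0 controls and 3.10, 3.28 and 1.20 in day 0 mutants. Its day 2 values were 4.18, 4.38 and 3.02 in controls and 3.05, 2.50 and 3.27 in mutants. The lowest value of day 0 mutants and of day 2 controls came from replicate 3, and the day 2 groups overlapped. Averaged over the days Otc differed by -1.09 ± 0.41 and did not pass (adjusted p = 0.107). The SD was 1.15 in day 0 mutants and 0.74 in day 2 controls, and 0.40 in day 2 mutants.

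The other Otc probes gave -0.86 ± 0.41 and -0.74 ± 0.29 over both days, with adjusted p-values of 0.217 and 0.139 over probes. All 3 probes had their lowest value on mutant day 0 replicate 3. The probe whose bases are printed above read -0.81 on that array, against 1.32 and 1.56 on the other day 0 mutants.

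Ass1, argininosuccinate synthetase, adds aspartate to citrulline. It read 5.98 and 6.04 in day 0 controls and 5.36, 5.52 and 4.71 in day 0 mutants. On day 2 it read 5.71, 5.61 and 5.84 in controls and 4.50, 4.97 and 5.94 in mutants. Mutants lay below controls at day 0, but mutant day 2 replicate 3 was above every day 2 control. Averaged over the days Ass1 differed by -0.70 ± 0.26 (adjusted p = 0.100), and -0.65 ± 0.25 for the second probe, which shares the 20 capital bases and so is not an independent reading.

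Asl, argininosuccinate lyase, releases arginine and fumarate. It read 4.05 and 4.09 in day 0 controls and 3.37, 3.65 and 2.63 in day 0 mutants. On day 2 it read 4.18, 4.58 and 4.26 in controls and 3.78, 3.53 and 4.35 in mutants. The difference over both days of -0.65 ± 0.21 did not pass (adjusted p = 0.0701). As for Ass1, day 0 mutants lay below both controls, and day 2 mutant replicate 3 lay within the control range.

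Arg1, the liver arginase that splits arginine into urea and ornithine, had groups that overlapped on both days. It read 5.69 and 5.63 in day 0 controls and 5.39, 5.73 and 3.97 in day 0 mutants. Its day 2 values were 4.87, 5.61 and 5.70 in controls and 4.76, 4.84 and 5.87 in mutants. Averaged over the days Arg1 differed by -0.43 ± 0.35 (adjusted p = 0.460), with an interval from -1.22 to 0.35 at 95% confidence. The day 2 difference of -0.24 turned to 0.06 under quantile normalization and 0.05 in the authors' deposited table.

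Nags, N-acetylglutamate synthase, has its main probe at chr11:101965494-101965552, which is not the probe printed above. By the main probe Nags read 3.80 and 3.69 in day 0 controls and 3.33, 3.73 and 4.02 in day 0 mutants. At day 2 its level was 4.02, 4.17 and 4.69 in controls and 3.40, 3.83 and 4.23 in mutants. The groups overlapped on both days, while within slides 1, 2 and 3 the day 2 differences were -0.62, -0.34 and -0.46. With the slide as a block the day 2 difference was -0.47 ± 0.15 and did not pass (adjusted p = 0.0737). Without the block the difference was -0.27 ± 0.20 over both days (adjusted p = 0.422), with an interval from -0.71 to 0.18, and -0.06 ± 0.30 at day 0. The second probe, printed above, gave -0.21 ± 0.26 over both days, and both probes had their highest value on day 2 control replicate 3.

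Glul joins ammonia to glutamate. Its main probe, at chr1:155671838-155671897, read 4.50 and 4.34 in day 0 controls and 3.61, 3.85 and 3.02 in day 0 mutants. On day 2 it read 4.07, 4.12 and 3.92 in controls and 3.41, 3.56 and 3.93 in mutants. Day 0 mutants lay below both controls, and on day 2 mutant replicate 3 lay just above the lowest control. Glul fell by 0.67 ± 0.17 on the log2 scale over both days (adjusted p = 0.0263), a 1.59-fold lower level, and neither day passed alone (-0.92 ± 0.25, adjusted p = 0.103, and -0.41 ± 0.22, adjusted p = 0.252). With the slide as a block the adjusted p over both days was 0.0594, with a covariate for pup sex it was 0.0579, and leaving out day 0 control replicate 1 it was 0.104. The Glul call was also lost without day 0 control replicate 2 (adjusted p = 0.0732), day 2 control replicates 1 or 2 (0.0579 and 0.0622) and day 2 mutant replicates 1 or 2 (0.0612 and 0.0644).

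The other Glul probes gave -0.53 ± 0.21 and -0.54 ± 0.22 over both days, with adjusted p-values of 0.138 and 0.153 over probes. The coding probe printed above read 2.01 on mutant day 0 replicate 3, its highest value on any array, where the main probe had its lowest. On the other day 0 mutants it read 0.77 and 1.06 against 1.80 and 1.38 in controls, and on day 2 it read 0.69, 0.72 and 0.97 in mutants against 1.66, 1.75 and 1.30 in controls. Its day 2 groups did not overlap, with a difference of -0.78 ± 0.30 (adjusted p = 0.123 over probes).

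**Figure D2:**
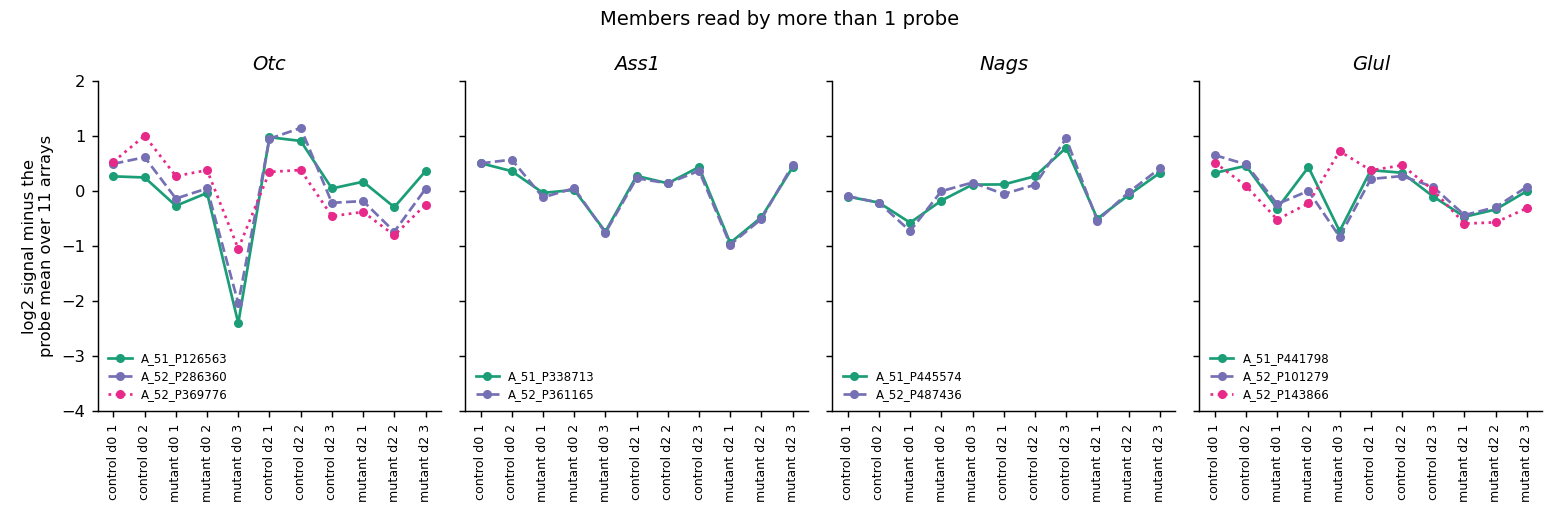
Log2 signal of each probe minus its mean over the 11 arrays (vertical axis), for the 4 genes read by more than 1 probe, with arrays in order of group and replicate on the horizontal axis. The Ass1 and Nags probes follow each other, whereas on mutant day 0 replicate 3 the Glul probe A_52_P143866 is at its highest, 2.01 before centring, and the Glul probe A_52_P101279 at its lowest, 3.02 before centring.

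Gls2 splits glutamine into glutamate and ammonia, which feeds the cycle. Its probe, at chr10:127612723-127612782, read 4.39 and 4.83 in day 0 controls and 3.84, 4.04 and 3.44 in day 0 mutants. Its day 2 values were 5.69, 5.56 and 5.31 in controls and 3.94, 3.62 and 4.69 in mutants. Mutants lay below controls on both days. Gls2 fell over both days, with a difference of -1.14 ± 0.21 (adjusted p = 0.0067) or a 2.20-fold lower level. At day 2 the difference was -1.43 ± 0.28 (adjusted p = 0.00878), 2.70-fold lower, and at day 0 it was -0.84 ± 0.31 (adjusted p = 0.245). The calls over both days and at day 2 held in all 23 and all 24 alternative settings run. The days did not differ in this difference by the test (-0.60 ± 0.42, adjusted p = 0.554).

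Taken 1 day at a time, 1 member, Cps1, fell at day 0, when 2.29% of all genes passed, 0.702% by a fall and 1.59% by a rise. At day 2 1 member, Gls2, fell, when 16.2% of all genes passed, 6.56% by a fall and 9.61% by a rise. All 8 differences were negative on each day, apart from the turn of Arg1 given above and of Nags at day 0, which was 0.13 without mutant day 0 replicate 1, with medians of -0.84 and -0.53 against -0.01 and -0.10 over all genes. No member passed for the difference between the days (unadjusted p under 0.05 for 0 of 8), where 0.27% of all genes did, 0.232% upward and 0.0376% downward.

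Day 2 differences were not alike on the 3 slides. On slides 1 and 2, day 2 mutants were below controls for all 8 genes, by 1.13 and 1.88 for Otc, 1.21 and 0.65 for Ass1, 0.40 and 1.05 for Asl and 0.65 and 0.95 for Cps1. On slide 3 the day 2 differences were 0.25 for Otc, 0.10 for Ass1, 0.09 for Asl, 0.16 for Arg1 and 0.00 for Glul, with -0.15 for Cps1, -0.46 for Nags and -0.62 for Gls2. Slide 3 held a male control and a female mutant, slide 1 a female control and a male mutant, and slide 2 a pair of females. Without mutant day 2 replicate 3, 5 members passed over both days and 2 at day 2, with Ass1 and Asl added over both days and Ass1 at day 2. The share of all genes called in that setting is not set beside these counts. The change may therefore not be particular to the members.

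**Figure D3:**
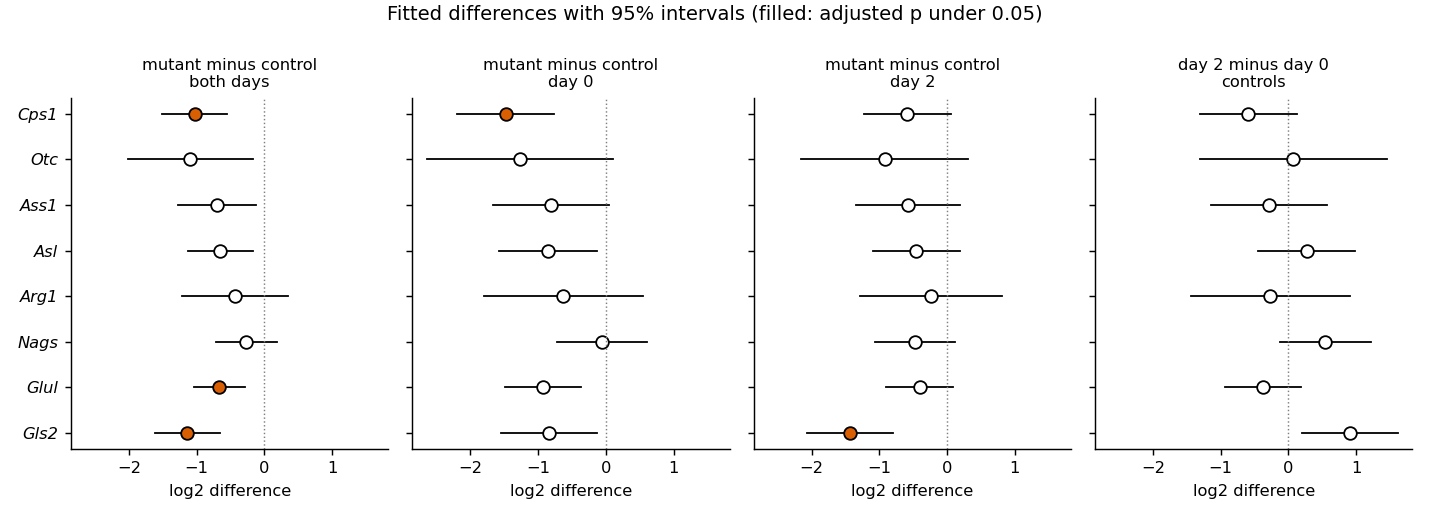
Fitted log2 difference (horizontal axis) with its 95% interval for each of the 8 genes in 4 comparisons, from all 11 arrays; filled points passed an adjusted p of 0.05. The filled points are Cps1, Glul and Gls2 over both days, Cps1 at day 0 and Gls2 at day 2, all below 0, and no point is filled for day 2 against day 0 in controls.

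From birth to day 2, no member passed in controls, where 11.2% of all genes passed (5.49% rose and 5.74% fell), or in mutants, where 20.6% did (9.34% rose and 11.3% fell). Among controls 1 member, Gls2, had an unadjusted p under 0.05, and among mutants 1, Asl. Gls2 differed by 0.91 ± 0.31 in controls (adjusted p = 0.0913), with every day 2 control above both day 0 controls, and by 0.31 ± 0.28 in mutants (adjusted p = 0.435). Cps1 differed by -0.59 ± 0.32 in controls (adjusted p = 0.249) and by 0.30 ± 0.28 in mutants. Nags differed by 0.55 ± 0.30 in controls (adjusted p = 0.253). Asl differed by 0.67 ± 0.29 in mutants (adjusted p = 0.118), with 1.72 on slide 3 against 0.41 and -0.12 on slides 1 and 2. These slide values compare arrays by slide only, as arrays of 1 slide were not shown to be paired across days. The comparison in controls rests on 2 day 0 arrays, both of male pups, while day 2 control replicates 1 and 2 were female. In mutants all day 0 pups and day 2 replicates 2 and 3 were female. Sex and day are therefore partly mixed, above all in controls. The main scaling called 876 genes higher and 915 lower at day 2 in controls, and scaling to the median 1286 and 468. In mutants it called 1489 and 1802, and scaling to the median 2095 and 1228.

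The members did not follow a single course over the 11 arrays. Centred on their own means, Ass1 and Glul were the closest pair, with a root mean square difference of 0.243 (log2), and Otc and Nags the farthest, at 0.905. The genes on the array closest to Gls2 were Apoc4, at 0.173, Ttc36 and Sardh, the mitochondrial sarcosine dehydrogenase. Those closest to Otc were Keg1, at 0.263, Car5a, at 0.282, and Clec4g, and those closest to Ass1 were Acsl1, at 0.248, Fitm2 and Usp25. Car5a is the mitochondrial carbonic anhydrase that supplies bicarbonate to Cps1. For Cps1 the closest were Slc8b1, at 0.239, Sdk1 and Dmxl2, for Asl Mtarc1, at 0.155, St6galnac6 and Brap, and for Arg1 Rhobtb1, at 0.222, and Acox2. For Nags they were Gemin2, at 0.129, Hspa9 and Ctsz, and for Glul Tirap, at 0.144, Mad1l1 and Rmnd5a. All of these were found by likeness alone and carry no test. The search covered the tested genes without clones, predicted genes, the members and genes with a missing value.

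Enzymes of glutamate and glutamine outside the member list moved in both directions. In mutants 2 of 15 rose and 3 fell, with a median of -0.14. Glud1, glutamate dehydrogenase, which releases or fixes ammonia in mitochondria, fell by 0.48 ± 0.12 on the log2 scale (adjusted p = 0.0248), and this call held in 12 of 23 alternative settings. Gclc, the catalytic subunit that starts glutathione synthesis from glutamate, rose by 1.07 ± 0.11 (adjusted p = 0.000202). It read 2.51 and 2.30 in day 0 controls, 3.37, 3.09 and 3.18 in day 0 mutants, 3.03, 2.94 and 2.90 in day 2 controls and 4.31, 4.12 and 4.45 in day 2 mutants, so the groups did not overlap on either day.

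The alanine transaminases, which pass nitrogen between alanine and glutamate, went opposite ways. The mitochondrial Gpt2 rose by 1.86 ± 0.36 (adjusted p = 0.00789), and the cytosolic Gpt had a difference of -0.91 ± 0.20 (adjusted p = 0.0152) and fell. Gpt2 read 0.48, 1.64 and 2.41 in day 2 controls and 3.72, 4.40 and 4.28 in day 2 mutants. Asns, which makes asparagine with nitrogen from glutamine, fell with a difference of -0.59 ± 0.11 (adjusted p = 0.00589).

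Of 15 genes listed for breakdown that releases ammonia, 3 rose and 3 fell, with a median of -0.32. Not every enzyme on this list releases ammonia itself, and Amdhd1, Uroc1 and Cbs do not. The falls included Amdhd1 and Uroc1 of histidine breakdown, with differences of -1.21 ± 0.18 (adjusted p = 0.00245) and -1.10 ± 0.18 (adjusted p = 0.00397). The rises were Sdsl and Sds, both of serine dehydration, and Cbs, which starts the transfer of sulfur from homocysteine. Sdsl rose by 1.12 ± 0.19 (adjusted p = 0.0047), Cbs by 0.86 ± 0.20 (adjusted p = 0.0197) and Sds by 1.73 ± 0.48 (adjusted p = 0.0384). The Sds call held in 13 of 23 alternative settings. In controls, Ftcd, Asrgl1, Amdhd1 and Sdsl of this list rose from day 0 to day 2 and no gene of it fell, with a median of 0.66 against -0.02 over all genes.

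Of 20 genes that use or make arginine, ornithine and polyamines, 2 rose and 5 fell over both days, with a median of -0.23. Azin2 and Oaz2, regulators of ornithine decarboxylase, rose by 1.16 ± 0.18 (adjusted p = 0.0025) and 0.59 ± 0.11 (adjusted p = 0.00696). Pycr1, which makes proline, fell with a difference of -0.62 ± 0.14 (adjusted p = 0.0169). Oat, ornithine aminotransferase, at 0.36 ± 0.22 (adjusted p = 0.313), and Arg2, the mitochondrial arginase, at 1.01 ± 0.58 (adjusted p = 0.280), did not pass.

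Among 30 transporters and mitochondrial suppliers of the pathway, 1 rose and 7 fell, with a median of -0.37. Slc38a3, a glutamine transporter of the hepatocyte membrane, read 3.10 and 3.65 in day 0 controls and 2.30, 2.49 and 2.84 in day 0 mutants. On day 2 it read 3.90, 3.66 and 3.70 in controls and 2.59, 2.43 and 3.15 in mutants. It fell over both days with a difference of -0.93 ± 0.18 (adjusted p = 0.00731), and mutants lay below controls on each day. Aqp9, a channel for glycerol and urea, fell with a difference of -1.62 ± 0.33 (adjusted p = 0.00983). Slc25a13, which exports aspartate from mitochondria for the Ass1 step, fell by 0.39 ± 0.11 on the log2 scale (adjusted p = 0.0449), a call that held in 9 of 23 alternative settings. Slc25a15, the carrier of ornithine and citrulline (-0.14 ± 0.31, adjusted p = 0.819), Car5a (-1.03 ± 0.35, adjusted p = 0.0804), Rhbg, an ammonia channel (-0.995 ± 0.494, adjusted p = 0.216), and the glutamate transporter Slc1a2 (0.05 ± 0.35, adjusted p = 0.948) did not pass over both days. From day 0 to day 2 Slc1a2 fell in mutants (-2.62, adjusted p = 0.00685) and did not pass in controls (-0.74, adjusted p = 0.371). Its mutant minus control difference changed by -1.88 ± 0.69 between the days and did not pass (adjusted p = 0.265). Aqp8, a water and ammonia channel, read 7.24 and 7.11 in day 0 controls and 4.08, 4.71 and 4.99 in day 2 controls, and differed by -2.58 ± 0.37 (adjusted p = 0.0048) between the days.

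Of 16 regulators of these genes or of liver zones, 1 rose and 4 fell, with a median of -0.33. Gcgr, the glucagon receptor, read 4.45 and 4.29 in day 0 controls, 3.13, 3.49 and 2.94 in day 0 mutants, 4.37, 4.78 and 4.35 in day 2 controls and 3.71, 3.65 and 3.78 in day 2 mutants. Its groups did not overlap, with a difference of -0.98 ± 0.13 (adjusted p = 0.00133). Cebpa, a factor that drives urea cycle genes, fell with a difference of -0.64 ± 0.13 (adjusted p = 0.0119), and Klf15 and Nr3c1, the glucocorticoid receptor, with -0.64 ± 0.14 (adjusted p = 0.015) and -0.42 ± 0.09 (adjusted p = 0.0156). Foxa1 rose by 0.95 ± 0.22 (adjusted p = 0.0187). Cebpb (-0.10 ± 0.45, adjusted p = 0.909) and Hnf4a (-0.57 ± 0.19, adjusted p = 0.0766) did not pass, and Cebpb read 6.90 on mutant day 0 replicate 3 against 4.24 and 4.27 on the other day 0 mutants.

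**Figure D4:**
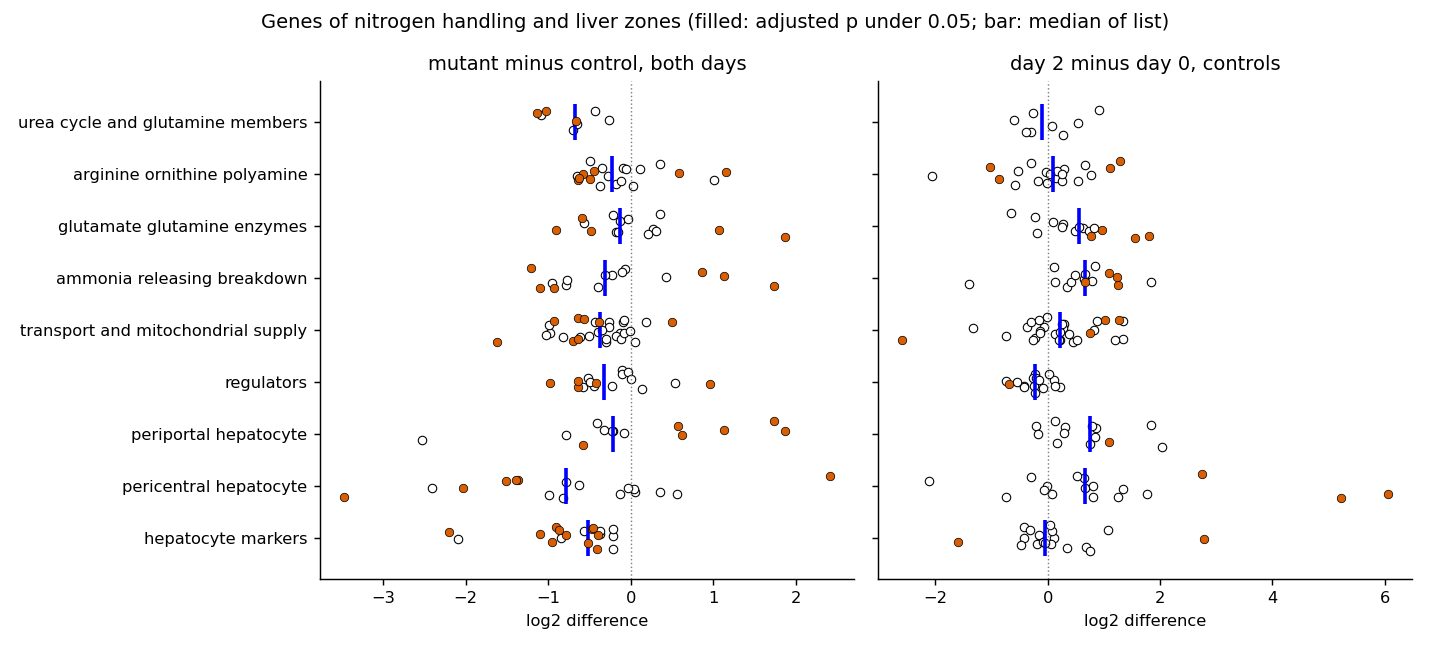
Log2 difference (horizontal axis) of every tested gene of the member list and 8 other lists, for mutants against controls over both days and for day 2 against day 0 in controls; each point is 1 gene, filled where the adjusted p was under 0.05, spread vertically for clarity, with a bar at the list median. Over both days the member median is -0.68 and that of genes around the central vein -0.79, and the glutamate list has filled points on either side of 0.

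Genes that mark hepatocyte zones in the adult did not move as 1 block. Among 13 portal genes on the tested list, 5 were called higher and 1 lower, with a median of -0.22, and of these 4 are also in the ammonia-releasing list (Gldc, Hal, Sds and Sdsl) and Cdh1 is also in the list of bile duct markers. By day, the portal median was -0.15 at day 0 and 0.24 at day 2, when 4 rose and 1 fell. The mean portal level was 2.23 and 2.46 in day 0 controls and 2.72, 2.72 and 1.45 in day 0 mutants, the last on replicate 3. Aldh1b1, a mitochondrial aldehyde dehydrogenase, rose by 1.87 ± 0.23 (adjusted p = 0.000783) and Cdh1 by 0.57 ± 0.13 (adjusted p = 0.0203). Of 17 genes of the central vein zone, 1 rose and 5 fell, with a median of -0.79. Their median was -0.22 at day 0 and -1.43 at day 2. Avpr1a, a vasopressin receptor, and Tbx3 fell with differences of -1.52 ± 0.22 (adjusted p = 0.00167) and -1.37 ± 0.20 (adjusted p = 0.00218). Sp5 rose and Cyp1a2 fell by the fit, but every day 0 control array for Sp5 and every day 0 mutant array for Cyp1a2 was not well above background, so no size is given.

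Several of these list counts changed by over 1.5 times with the arrays used or with pup sex as a covariate. Without mutant day 0 replicate 3, 9 genes of the ammonia-releasing list and 10 regulators passed over both days in place of 6 and 5. With pup sex as a covariate the counts were 1 for arginine and polyamines, 3 each for glutamate and for ammonia release, 2 each for transport, regulators, portal and central vein genes. The share of all genes called in these settings is not set beside these counts, so their changes may not be particular to the lists.

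Of 19 hepatocyte markers with a probe, 18 were well above background on all 11 arrays, against 6 of 10 for intestine, 2 of 8 for kidney and 1 of 8 for pancreas. Of these 19, 11 fell in mutants over both days and none rose, with a median of -0.52. Their mean level ran from 6.70 to 7.11 in day 0 controls, 6.19 to 6.32 in day 0 mutants, 6.79 to 7.18 in day 2 controls and 5.98 to 6.39 in day 2 mutants, so mutants lay below controls on both days. Of 15 bile duct markers, Cdh1 among them, 10 rose and none fell, with a median of 1.31. Their mean level ran from -0.42 to -0.20, 0.54 to 0.94, -0.96 to -0.56 and 1.23 to 1.50 in the same order of groups. Of 13 erythroid markers 5 fell, with mean levels from 3.94 to 4.05, 2.90 to 3.81, 3.37 to 3.83 and 1.79 to 2.46. Macrophage markers fell for 5 of 13, endothelial markers for 3 of 10 and megakaryocyte markers for 1 of 9, and none of the 10 granulocyte, 11 stellate or 6 lymphoid markers passed. The medians over both days were -1.01 for erythroid, -0.96 for megakaryocyte, -0.61 for macrophage and -0.50 for granulocyte markers. They were -0.40 for endothelial, -0.36 for lymphoid and 0.34 for stellate markers. A negative median was thus not particular to hepatocyte markers. Of 7 intestine markers 1 rose and 1 fell, of 4 kidney markers 1 rose, and none of 5 pancreas markers passed. Slc34a1 and Nphs1 of kidney and Pnlip of pancreas were above background on no array. The part of these shifts in the differences of the members was not tested.

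Promoter sequence, from RefSeq on GRCm38.p6, was held for 4 of the 8 members, Otc, Ass1, Nags and Glul, as 250 bases before to 50 bases after the start. The 6-letter core of RBPJ, the DNA partner of NICD, TGGGAA, was searched on both strands and was in none of the 4 windows, against 25.6% of all 32817 windows. The other motifs were in none of the 4 windows either. They were TTGCNNAA of the C/EBP type, held by 10.8% of all windows, the TATA box TATAAA, by 13.6%, the cyclic AMP element TGACGTCA, by 1.79%, the core letters of a glucocorticoid receptor site TGTTCT, by 19%, and CAAAGTCCA of the HNF4 type, by 0.475%. All were searched on both strands. CCAAT was in the Glul window at 113 and 50 bases before the start, against 37.4% of all windows, and with no other match in these windows no motifs overlapped. The 250 bases before the Glul start, chr1:153899679-153899928 on the forward strand, are shown because Glul is the member past the threshold for which a window was held, with CCAAT in capitals.
Glul promoter: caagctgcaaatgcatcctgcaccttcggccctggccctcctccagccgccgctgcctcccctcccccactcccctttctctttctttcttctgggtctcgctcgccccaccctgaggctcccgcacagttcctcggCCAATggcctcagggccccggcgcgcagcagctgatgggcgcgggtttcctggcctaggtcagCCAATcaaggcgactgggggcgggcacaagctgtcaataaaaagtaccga
These matches describe letters in a window and are not binding sites.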

How the data were processed

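Each array's file holds, per the file headers, a processed signal from Agilent Feature Extraction 9.5.3.1, an intensity after background subtraction within that array and not scaled between arrays. A second deposited file holds the authors' log2 values of 33322 probes, made with RMA per the submitters' processing notes, with settings not stated. It was used as an alternative. Its column medians ran from 7.608 to 7.637 over distinct probes, and its centring is unknown.

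Here log2 of that signal was scaled to the 75th percentile of non-control spots on its array, without control and outlier spots. Tested probes were well above background on all arrays of 1 or more groups (27153 of 41174), with the brightest probe of a gene as its value. Symbols came from the RefSeq table by accession for 23374 probes, by the file's symbol for 6733 and by synonym for 2919. The files alone named 1845 more, and 6303 stayed without a symbol. The model was fitted in limma 3.58.1 (R 4.3.3) with 1 coefficient per group of genotype by day, all 11 arrays in 1 fit (7 residual and 2.39 prior degrees of freedom), and Benjamini-Hochberg adjustment over 15950 genes. Values of single probes were adjusted over the 27096 tested probes that had a value in every group. The fit was tested on simulated data.

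Genes named beside the members were, per list, up to 4 with the smallest p over both days among those past the threshold in any comparison, up to 2 by the change between days in controls, 13 taken whatever their values, and the 3 genes most like each member. Some genes that this rule names are not reported here. The markers outside the pathway are given as lists. The members and lists were chosen with earlier results of these data known. Alternatives were the background correction, scaling, filters, probe choice, saturated spots, slide as a fixed or random block, pup sex, array weights, the deposited table, a fit on the compared groups alone, and each array left out.

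Replicates 1, 2 and 3 lie on slides 1, 2 and 3, and each group has 1 array position on all slides, so position and group cannot be told apart. Deviations from the group means of same-numbered day 2 arrays correlated at 0.290, 0.231 and 0.257 across genes, against -0.211 to -0.061 for other pairs, so the numbers were taken to pair the day 2 arrays. At day 0 the 2 pairs correlated at 0.063 and 0.091. Across days, same-numbered arrays correlated from -0.036 to 0.129, and arrays with different numbers from -0.128 to 0.116. The numbers were therefore not shown to pair arrays across days. The slide block over both days and the day differences within slides rest on the slide layout alone.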

Additional observations from a re-analysis of the deposited data

How the results depend on the processing

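The count of members past the threshold was most open to pup sex, array weights and which arrays were kept, and the cause was not tested. These counts are not set beside the share of all genes called in each setting. A change in them may therefore not be particular to the members. Over both days it was 3, with 1 under pup sex as a covariate, 5 under array weights, and from 1 to 5 with 1 array left out (1 without day 0 control replicate 2, 5 without day 2 mutant replicate 3). At day 0 it was 1, with 0 under median scaling, no filter, the mean of all probes, pup sex, or the compared groups alone, 2 under array weights, and from 0 to 1 with 1 array left out. At day 2 it was 1, with 2 under array weights and from 1 to 2 with 1 array left out. For day 2 against day 0 in controls it was 0, with 1 under array weights and 1 with the compared groups alone, each time Gls2. With the replicate block (slide fixed) the counts were 2 over both days, 1 at day 0 and 1 at day 2, with Glul lost and no other call of a member changed by the block.

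Directions turned only for differences that did not pass. For Arg1 at day 2 the value was 0.056 under quantile normalization and 0.052 in the deposited table. For Otc in controls between days it was -0.16 (quantile), -0.10 (deposited table), -0.073 (mean of probes) and -0.29 (pup sex), and for Asl -0.028 (deposited table). For Ass1 in mutants between days it was 0.015 (quantile), 0.12 (median scaling) and 0.067 (pup sex), and for Glul -0.14 (mean of probes) and -0.020 (array weights). Array weights also gave -0.39 for Otc and -0.00299 for Arg1 for the difference between days, and -0.078 and -0.21 for them in mutants between days. With 1 array left out, Nags at day 0 ran from -0.22 to 0.13, and in mutants between days Ass1 ran from -0.47 to 0.26, Nags from -0.077 to 0.34, Otc from -0.25 to 0.79, Arg1 from -0.40 to 0.48 and Glul from -0.10 to 0.32. The difference between days ran from -0.32 to 0.72 for Otc, -0.18 to 0.55 for Ass1 and -0.14 to 0.74 for Arg1, and Otc in controls between days from -0.19 to 0.49. Scaling to the median moved the median of all genes from -0.02 to 0.18 between days in controls and from -0.005 to 0.18 in mutants. Signal over background did not limit the members, and where a left-out array left 1 day 0 control, that control was taken to vary like the other groups.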
